A study of Mus musculus with 8 samples.

Results

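The genes described here encode proteins of synaptic vesicles and of the machinery that fuses them with the presynaptic membrane and takes them back up. They are 41 genes chosen by name for this role, out of 54532 genes counted in the mouse retina by bulk RNA-seq. The choice was made with earlier results of these data known, so the shares given below only describe this list. All 41 passed the filter on low counts that left 17998 genes to test. The study compared 4 retinal samples of *Mettl3*-CKO mice with 4 of control mice at postnatal day 7 (the methods text gives day 6). *Mettl3*-CKO mice carried *Six3-Cre*, which is active in retinal progenitor cells, and 2 floxed copies of *Mettl3*, which encodes the catalytic subunit of the complex that writes m6A, a methyl mark on adenosines of RNA. The sources used here give no further genotype for the controls and do not say whether the controls of these samples were littermates. They describe deletion in the central retina, and do not state whether a library held 1 retina or pooled retinas. The p-values therefore measure the spread between these samples.

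A synaptic vesicle is filled with transmitter by a transporter in its membrane, docks at the active zone, is primed, and fuses when calcium reaches a sensor on the vesicle. Fusion is driven by SNARE proteins on the vesicle and on the target membrane that zip into a bundle, with complexins bound to the assembled bundle, and the vesicle membrane is then retrieved by endocytosis. In the retina, photoreceptors and bipolar cells release glutamate continuously at ribbon synapses, while amacrine cells form conventional synapses, and at this age many of these contacts are still forming.

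None of the 41 genes was higher in *Mettl3*-CKO retinas and 8 were lower at an adjusted p under 0.05 (quasi-likelihood test of edgeR, Benjamini-Hochberg adjustment over all tested genes). The 8 genes were *Syp*, *Sv2a*, *Slc17a7*, *Sncb*, *Doc2b*, *Snap25*, *Cplx2* and *Bin1*, and they make up 19.5% of the members, where 4.05% of all tested genes were called lower and 6.49% higher. Their log2 fold changes lay between -0.61 and -0.31 with a median of -0.45, so the changes were moderate, and no member changed more than 2-fold. At an unadjusted p under 0.05, 16 members were lower and 0 higher, but the share of all tested genes at that threshold was not counted. DESeq2 called 12 members lower and 0 higher, against 5.79% and 8.38% of the genes it tested, and the 4 it added were *Syt5*, *Syt11*, *Vamp2* and *Cplx3*. The median log2 fold change over the 41 genes was -0.16, beside -0.01 over all tested genes. Of the members, 37 were below 0 and 4 above, where 51.8% of all tested genes were below 0.

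Counting only whether the samples overlap gave a similar list. In 11 members (26.8%) every *Mettl3*-CKO sample was below every control sample, namely the 8 called genes, *Syt5*, *Syt11* and *Cplx3*, and 0 members showed the opposite order. Among all tested genes the groups separated downward in 7.58% and upward in 9.77%. In whole-retina RNA, fewer cells of a type and less RNA per cell cannot be told apart, which holds for every difference given here.

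**Figure D1:**
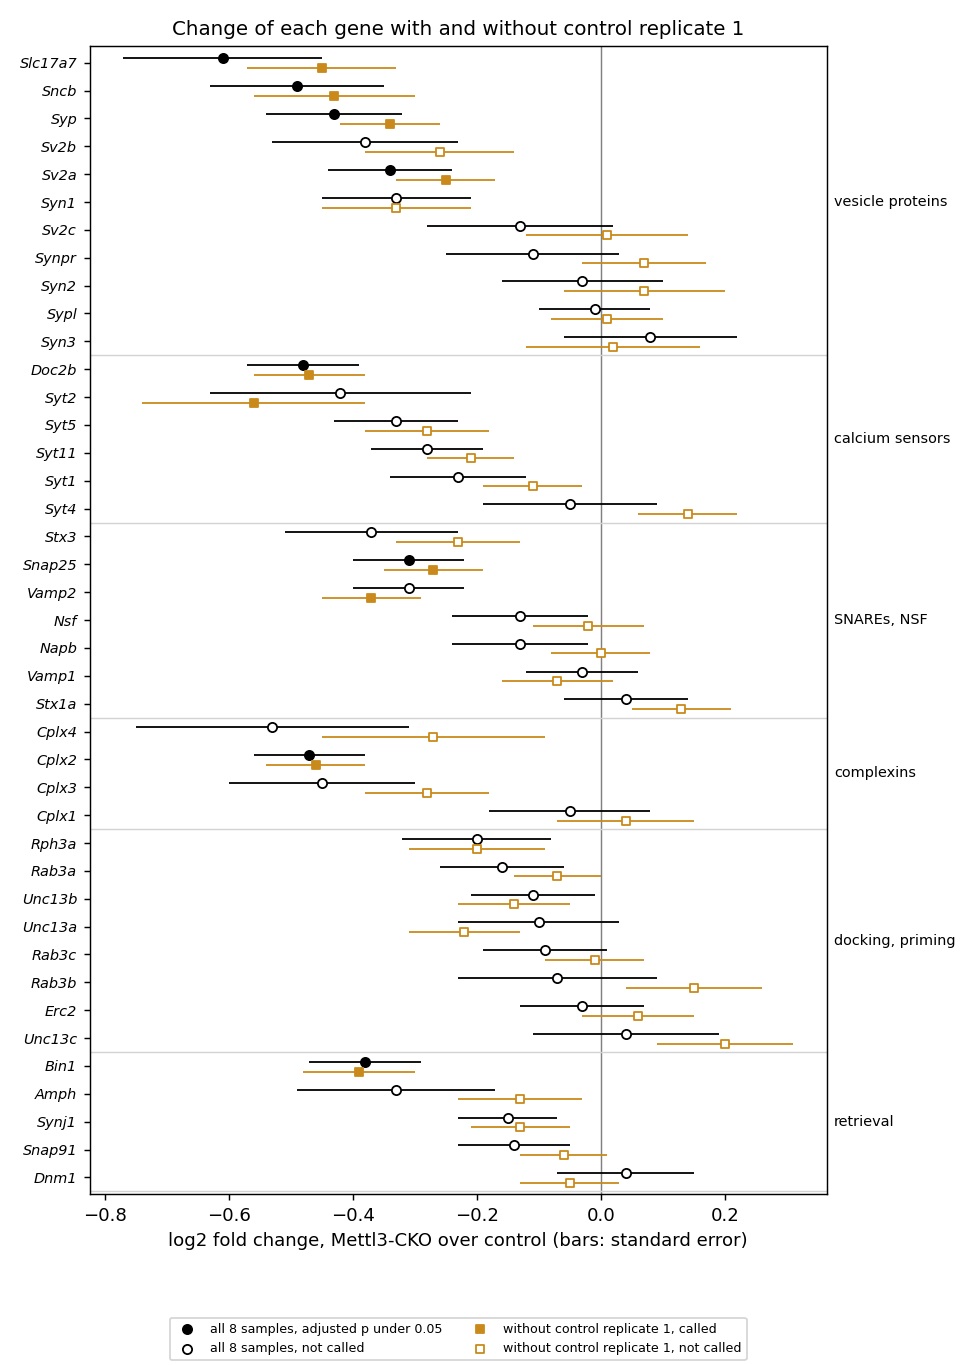
Log2 fold change of each of the 41 genes, *Mettl3*-CKO over control, by role, with standard errors. Black circles are the fit of all 8 samples and orange squares the fit without control replicate 1, filled where the adjusted p is under 0.05. The 8 filled circles lie between -0.61 and -0.31, and no gene is filled to the right of 0.

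The total counts lay between 16227095 and 20281517 per sample, and the lowest count of any member in any sample was 60, in *Syt2*. For this gene, counting error alone is about as large as the spread between *Mettl3*-CKO samples (mean 3.51 CPM, SD 0.357). The spread between controls was larger (mean 4.69 CPM, SD 1.19). *Mettl3* itself was at 21.1, 29.6, 21.3 and 24.3 CPM (read counts scaled to library size by the TMM method) in *Mettl3*-CKO replicates 1 to 4 and at 33.8, 32.5, 29.4 and 29.3 CPM in control replicates 1 to 4, with *Mettl3*-CKO replicate 2 inside the control range (log2 fold change -0.38, standard error 0.12, edgeR adjusted p = 0.0602). Control replicate 1 stood apart from the other controls. It had the highest CPM of all 8 samples for 29 of the 41 members, and 2.38% of its counts were mitochondrial, against 1.69 to 1.76% in the other controls and 1.77 to 2.26% in the *Mettl3*-CKO samples. The main results are therefore also given without it.

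Without control replicate 1, 10 members were called lower (24.4%) and 0 higher, where 7.07% of all tested genes were called lower and 10.3% higher. All 8 genes of the fit with every sample were among them, and *Syt2* and *Vamp2* were added. The median log2 fold change of the members moved to -0.13. It came closer to 0 for 25 members and moved away from 0 for 13, 9 members changed sign, and the standard error was smaller for 32. Leaving out other libraries lowered the number of calls, among the members and among all tested genes. The number of members called lower was 2 without *Mettl3*-CKO replicate 1, 4 without replicate 2 and 3 without replicate 3 of that group, and 2 without control replicate 2. *Doc2b* and *Cplx2* were called whichever library was left out. *Bin1* was lost without *Mettl3*-CKO replicate 1 or control replicate 2, *Syp* and *Slc17a7* without either of these or *Mettl3*-CKO replicates 2 or 3, *Sv2a* without any of those 4 libraries or control replicate 4, and *Sncb* and *Snap25* without any library except control replicate 1 or *Mettl3*-CKO replicate 4. Over all 18 other fits the highest edgeR, DESeq2 or limma adjusted p was 0.071 for *Bin1*, 0.0874 for *Syp*, 0.11 for *Slc17a7*, 0.12 for *Sncb*, 0.148 for *Sv2a* and 0.164 for *Snap25*, and every one of these fits gave a lower level in *Mettl3*-CKO retinas.

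The summed level of the 41 genes showed the order of the samples. It was 4802, 5048, 5381 and 5732 CPM in the *Mettl3*-CKO retinas and 7097, 6254, 6129 and 6068 CPM in the controls, each in the order of replicates 1 to 4, as in all lists of values that follow. The members held 0.484 to 0.578% of the counts of the *Mettl3*-CKO samples and 0.611 to 0.687% of those of the controls. Both groups were spread, with *Mettl3*-CKO replicate 1 lowest in its group for 23 members, *Mettl3*-CKO replicate 4 highest in its group for 26, and control replicate 1 highest in its group for 29.

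**Figure D2:**
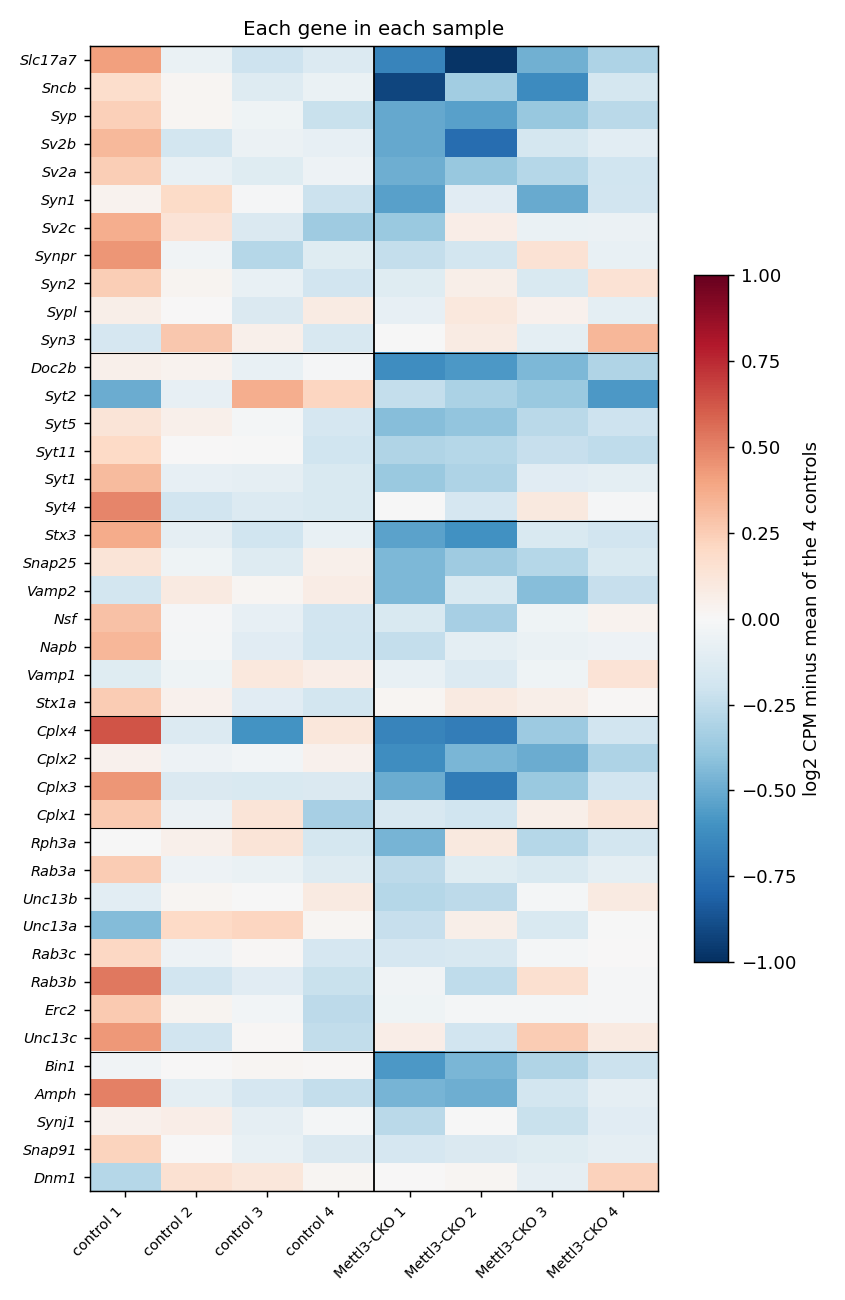
Each gene in each sample, as log2 CPM minus the mean of the 4 controls, with rows grouped by role. Red is above the control mean and blue below. The *Mettl3*-CKO columns are mostly blue for *Slc17a7*, *Sncb*, *Syp*, *Doc2b*, *Cplx2* and *Bin1*, and control 1 is red in most rows.

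METTL3 marks adenosines in a short sequence context, of which GGACT (in DNA letters) is a well-known form, often near stop codons. The stretch around the GGACT nearest to the stop codon is therefore shown for the 5 called genes that hold one within 200 bases of it. Each was read from the GENCODE vM21 transcript with the longest coding sequence (GRCm38), runs 5′ to 3′ along the RNA, and has GGACT in capitals. The distances run from the middle of the motif to the middle of the stop codon.
Slc17a7: gccccctgtccgGGACTactgaccacggg
Syp: ctatgggccccaGGACTcctacgggcctc
Sncb: ggaaagttatgaGGACTcaccccaggagg
Sv2a: cctgatgggcagGGACTacagggacggtc
Cplx2: taccctagtcagGGACTcctcccctctgc
The *Slc17a7* stretch (chr7:45175023-45175051, plus strand) has its motif in coding sequence 6 bases before the stop codon, and its last bases run through that codon into the 3′ UTR. The *Syp* stretch (chrX:7648724-7648752, plus strand) is coding and 144 bases before it. The *Sncb* stretch is coding, 42 bases before it, on the minus strand, and spans a splice junction between chr13:54759538 and chr13:54759892. Those of *Sv2a* (chr3:96194064-96194092) and *Cplx2* (chr13:54379850-54379878), both on the plus strand, are in the 3′ UTR, 163 and 156 bases after it.

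The same letters also lay near the stop codon of genes that were not called, of which the 3 nearest are shown for comparison.
Nsf: ttgattgaaaacGGACTgtttacaacagt
Synj1: accttccacattGGACTtcacggaaagat
Stx3: gcgttgattattGGACTgtccgttgggct
They lie on the minus strand, *Nsf* (chr11:103823217-103823245) 8 bases after the stop codon, *Synj1* (chr16:90938242-90938270) 15 bases before it and *Stx3* (chr19:11781604-11781632) 20 bases before it. A GGACT within 200 bases of the stop codon was present in 5 of the 8 called members (62.5%), 15 of the 33 others (45.5%) and 39.5% of the 14268 tested protein-coding genes with such a transcript. The median number of GGACT per kilobase of transcript was 1.58 in the called members, 0.931 in the others and 1.06 over all these genes. A match says that these letters are present and does not say that the adenosine is methylated.

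Proteins of the vesicle membrane or bound to it formed the largest group, with 4 of 11 genes called lower, 0 higher and a median log2 fold change of -0.33. *Syp* (chromosome X, 7638471 to 7653256) encodes synaptophysin, an abundant membrane protein of the vesicle, and was the member of this group with the highest level per length, at 70.2 FPKM (CPM per kilobase of gene, without TMM scaling) over all samples. It was at 294, 289, 322 and 347 CPM in the *Mettl3*-CKO retinas and at 495, 425, 406 and 359 CPM in the controls. The highest *Mettl3*-CKO sample was just below the lowest control. The group means were 313 ± 27 and 421 ± 56.3 CPM (SD, n = 4), which is a log2 fold change of -0.43 (standard error 0.11, edgeR adjusted p = 0.0228), and -0.34 without control replicate 1 (edgeR adjusted p = 0.0129). Of the exon bases of *Syp*, 16.8% are shared with an antisense gene, *Gm14703*, and the sources used here do not say whether strand was used in counting.

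*Slc17a7* (chromosome 7, 45163949 to 45176142) encodes VGLUT1, the transporter that loads glutamate into vesicles of photoreceptors and bipolar cells, and had the lowest fold change of the called members. The level was 42.2, 33.6, 47.8 and 53.6 CPM in the *Mettl3*-CKO retinas, against 88.3, 63.5, 57.8 and 60.6 CPM in the controls. The groups did not overlap, although control replicate 1 was far above the other controls. Averages were 44.3 ± 8.5 and 67.5 ± 14.1 CPM (SD, n = 4), giving a log2 fold change of -0.61 (standard error 0.16, edgeR adjusted p = 0.028). Without control replicate 1 it was -0.45 (edgeR adjusted p = 0.0207).

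*Sncb* (chromosome 13, 54758860 to 54766595) encodes beta-synuclein, a presynaptic relative of alpha-synuclein. It was at 26.3, 39, 32.2 and 44 CPM in the *Mettl3*-CKO retinas and at 56.1, 50.3, 45.3 and 47.6 CPM in the controls. *Mettl3*-CKO replicate 4 came closest to the controls. The group means were 35.4 ± 7.72 and 49.8 ± 4.67 CPM (SD, n = 4), which is a log2 fold change of -0.49 (standard error 0.14, edgeR adjusted p = 0.0412), and -0.43 without control replicate 1 (edgeR adjusted p = 0.0362).

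*Sv2a* (chromosome 3, 96181151 to 96195521) encodes a vesicle glycoprotein that is the binding site of the drug levetiracetam. The level was 158, 170, 181 and 192 CPM in the *Mettl3*-CKO retinas, against 261, 209, 204 and 213 CPM in the controls. The gap between the groups was narrow and control replicate 1 stood above the other controls. Averages were 175 ± 14.7 and 222 ± 26.6 CPM (SD, n = 4), which is a log2 fold change of -0.34 (standard error 0.10, edgeR adjusted p = 0.0417) that was -0.25 without control replicate 1 (edgeR adjusted p = 0.0306).

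The other 7 genes of this group were not called. *Sv2b*, the relative of *Sv2a* known from photoreceptors, had a log2 fold change of -0.38 (edgeR adjusted p = 0.123) and *Syn1*, a synapsin that holds vesicles in the reserve pool, of -0.33 (edgeR adjusted p = 0.0937). *Sv2c*, *Synpr*, *Syn2*, *Sypl* and *Syn3* lay between -0.13 and 0.08, and without control replicate 1 between 0.01 and 0.07, so that 4 of these 5 changed sign.

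**Figure D3:**
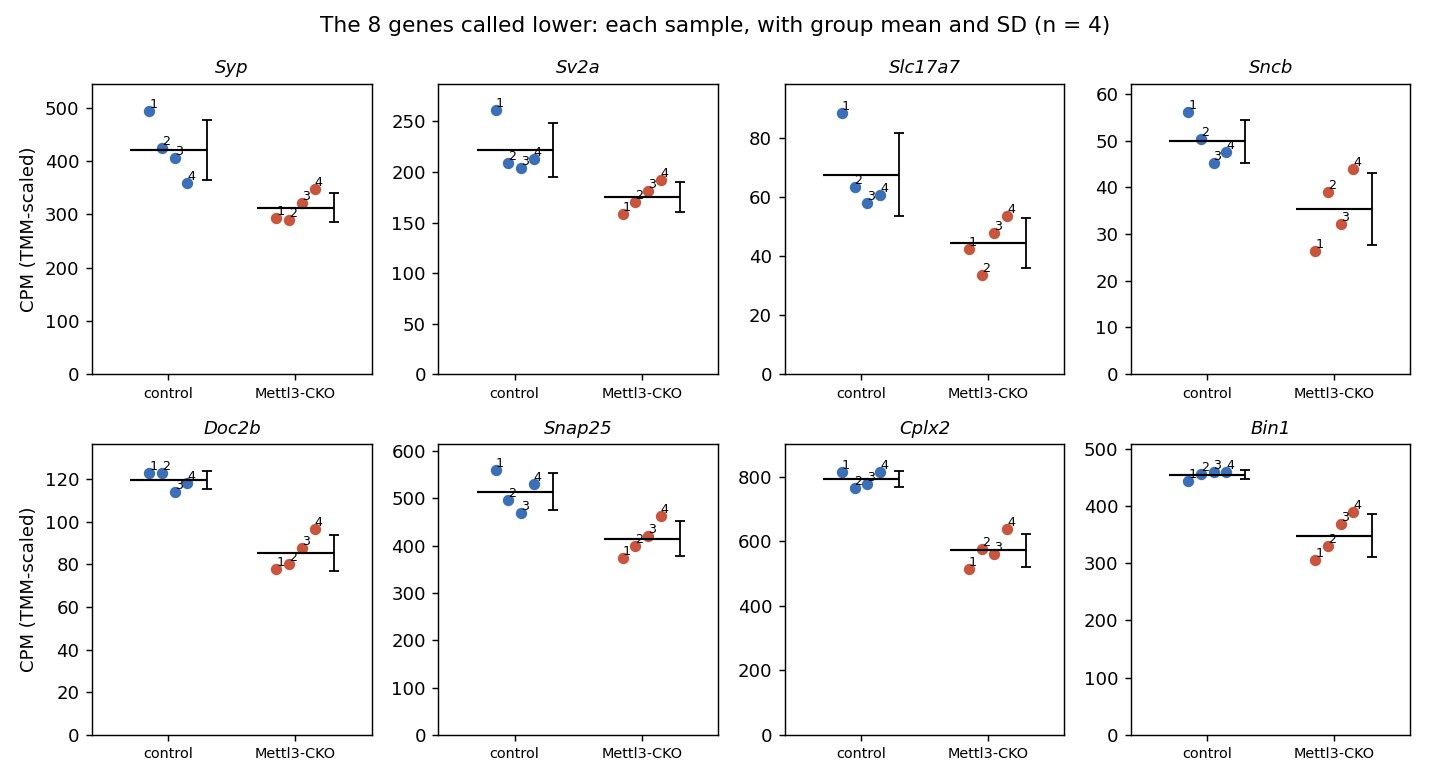
CPM of the 8 called genes in each sample (points, numbered by replicate), with the mean as a line and the SD as a bar (n = 4 per group). Every red point (*Mettl3*-CKO) lies below every blue point (control) in each panel, most narrowly for *Syp*, *Sncb* and *Snap25*.

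The promoters of these genes differ in sequence. RefSeq (GRCm38.p6) gave the 250 bases before a transcription start for 33 of the 41 members and 5 of the 8 called ones. The stretches for *Slc17a7* (chr7:45163671-45163920, plus strand) and *Sncb* (chr13:54766596-54766845, minus strand), called members whose stretch lies close to the counted gene without overlapping it, are shown, 5′ to 3′ along the gene, with GC boxes (GGGCGG on either strand) in capitals.
Slc17a7: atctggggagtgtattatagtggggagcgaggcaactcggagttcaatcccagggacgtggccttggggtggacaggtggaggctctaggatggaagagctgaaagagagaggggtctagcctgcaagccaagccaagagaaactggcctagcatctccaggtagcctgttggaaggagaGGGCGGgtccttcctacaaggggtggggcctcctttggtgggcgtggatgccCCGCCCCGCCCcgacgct
Sncb: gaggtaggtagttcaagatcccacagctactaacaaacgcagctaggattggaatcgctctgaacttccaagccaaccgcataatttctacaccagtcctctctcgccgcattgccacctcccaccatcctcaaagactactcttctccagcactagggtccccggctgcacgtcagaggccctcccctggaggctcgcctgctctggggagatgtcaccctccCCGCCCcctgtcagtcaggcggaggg
The *Slc17a7* stretch holds 3 GC boxes, of which 2 overlap by one base in a run near its end, and the *Sncb* stretch holds 1. A GC box was found for 4 of the 5 called members with a promoter (*Syp*, *Sv2a*, *Slc17a7* and *Sncb*) and for 19 of the 28 others, counting a gene once if any of its starts had one, while 32.7% of all 32851 promoters held one. The stretch of *Cplx2*, the called member without one, ends at chr13:54302555, far from the start of the counted gene at 54371349. It may therefore not be the promoter of the counted transcripts. The 5 called members also included 1 with the cAMP response element half-site TGACG (*Sncb*, 17.8% of all promoters) and 1 with the CRX-type sequence TAATCC (*Syp*, 6.25% of all promoters). The E-box CANNTG, a palindrome, was found for 3 of the 5 called members and 23 of the 28 others, and in 66.2% of all promoters. No sequence was shared by all 5 called members among those searched on both strands.

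Calcium sensors of the vesicle followed, with 1 of 6 genes called lower and a median log2 fold change of -0.30. *Doc2b* (chromosome 11, 75768966 to 75796049) encodes a soluble sensor with high affinity for calcium that has been linked to spontaneous and delayed release. It was at 77.7, 80.1, 87.5 and 96.6 CPM in the *Mettl3*-CKO retinas and at 123, 123, 114 and 118 CPM in the controls. The controls lay close together and well above every *Mettl3*-CKO sample. The group means were 85.5 ± 8.51 and 120 ± 4.37 CPM (SD, n = 4), giving a log2 fold change of -0.48 (standard error 0.09, edgeR adjusted p = 0.00563). Leaving out control replicate 1 gave -0.47 (edgeR adjusted p = 0.00219).

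*Syt1* encodes synaptotagmin 1, the sensor for fast synchronous release at most conventional synapses, and was the sensor gene with the highest level per length (55.2 FPKM). The level was 384, 399, 457 and 460 CPM in the *Mettl3*-CKO retinas, against 619, 468, 466 and 444 CPM in the controls. Control replicate 1 was far above all other samples, and the remaining controls overlapped the *Mettl3*-CKO range. The log2 fold change was -0.23 (standard error 0.11, edgeR adjusted p = 0.232), and -0.11 without control replicate 1 (edgeR adjusted p = 0.379).

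*Syt2*, a close relative of *Syt1* that serves fast synapses, was near the low end of what was measured (0.536 FPKM, the lowest of the members). It was at 3.87, 3.65, 3.51 and 3.03 CPM in the *Mettl3*-CKO retinas and at 3.21, 4.29, 5.93 and 5.32 CPM in the controls. Here control replicate 1 was the lowest control and lay inside the *Mettl3*-CKO range. The log2 fold change was -0.42 (standard error 0.21, edgeR adjusted p = 0.239), and -0.56 without that library (edgeR adjusted p = 0.0413).

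*Syt5* and *Syt11* were just outside the threshold although their groups did not overlap. *Syt11*, a synaptotagmin that does not bind calcium in the usual way, had a log2 fold change of -0.28 (edgeR adjusted p = 0.0654), and *Syt5* of -0.33 (edgeR adjusted p = 0.0517). *Syt4*, at -0.05, was at 0.14 without control replicate 1 and was not called in either fit. Of its exon bases 14.5% are shared with an antisense gene.

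Of the 7 genes for SNARE proteins and the enzymes that take SNARE bundles apart, 1 was called lower, with a median of -0.13. *Snap25* (chromosome 2, 136713453 to 136782428) encodes a SNARE of the presynaptic membrane and had the highest level per length of this group (68.1 FPKM). It was at 374, 400, 420 and 462 CPM in the *Mettl3*-CKO retinas and at 559, 497, 469 and 529 CPM in the controls. *Mettl3*-CKO replicate 4 and control replicate 3 nearly met. Averages were 414 ± 37.4 and 514 ± 39 CPM (SD, n = 4), which is a log2 fold change of -0.31 (standard error 0.09, edgeR adjusted p = 0.0491), and -0.27 without control replicate 1 (edgeR adjusted p = 0.0399).

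*Vamp2* (synaptobrevin 2), the vesicle's partner of SNAP25 and syntaxin in the bundle, had the same log2 fold change as *Snap25*. The level was 194, 239, 198 and 226 CPM in the *Mettl3*-CKO retinas, against 233, 282, 268 and 281 CPM in the controls. Only control replicate 1 lay inside the *Mettl3*-CKO range. The log2 fold change was -0.31 (standard error 0.09, edgeR adjusted p = 0.0531), and -0.37 without that library (edgeR adjusted p = 0.00627).

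The syntaxins, which complete the bundle on the presynaptic membrane, had different values. *Stx3*, the syntaxin of ribbon synapses, had a log2 fold change of -0.37 (edgeR adjusted p = 0.101), and *Stx1a*, that of conventional synapses, of 0.04 (edgeR adjusted p = 0.873). The difference between them was not tested. *Nsf*, the ATPase that pulls used bundles apart, and *Napb*, its adaptor, were both at -0.13, and *Vamp1* at -0.03.

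Among the 4 complexins, which bind the assembled SNARE bundle, 1 was called lower and the median was -0.46. *Cplx2* (chromosome 13, 54371349 to 54383917) had the highest level per length of this group, at 138 FPKM. It was at 516, 577, 560 and 640 CPM in the *Mettl3*-CKO retinas and at 816, 766, 778 and 815 CPM in the controls. The groups were far apart and control replicate 1 was no outlier here. The group means were 573 ± 51.8 and 794 ± 25.7 CPM (SD, n = 4), giving a log2 fold change of -0.47 (standard error 0.09, edgeR adjusted p = 0.00586). The fit without control replicate 1 gave -0.46 (edgeR adjusted p = 0.00219).

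*Cplx3* and *Cplx4*, the complexins of ribbon synapses, had log2 fold changes of -0.45 (edgeR adjusted p = 0.0668) and -0.53 (edgeR adjusted p = 0.163). Control replicate 1 was the highest sample for both, and without it they were at -0.28 and -0.27, with edgeR adjusted p of 0.0642 and 0.306. *Cplx1*, the closest relative of *Cplx2*, was at -0.05, and at 0.04 without that library.

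None of the 8 genes for docking and priming was called, with a median of -0.09 and a range from -0.20 to 0.04, and none was called without control replicate 1 or by DESeq2. None reached an unadjusted p of 0.05 either. *Rab3a*, the GTPase on the vesicle that guides docking, had the highest level per length of them (50.9 FPKM). It was at 99.7, 110, 108 and 112 CPM in the *Mettl3*-CKO retinas and at 142, 116, 113 and 109 CPM in the controls. The groups overlapped and control replicate 1 alone was clearly higher, giving a log2 fold change of -0.16 (standard error 0.10, edgeR adjusted p = 0.327), or -0.07 without it (edgeR adjusted p = 0.55). *Rph3a*, a Rab3 effector, was at -0.20, *Unc13a* and *Unc13b*, priming factors, at -0.10 and -0.11, and *Erc2*, an active zone scaffold, at -0.03.

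In the group for retrieval of vesicle membrane, 1 of 5 genes was called lower, with a median of -0.15. *Bin1* (chromosome 18, 32377217 to 32435736) encodes amphiphysin 2, a protein that bends membrane and is made in many cell types besides neurons, and had the highest level per length of all members with the deposited gene lengths (163 FPKM). The deposited length of *Bin1* is 2451 bases and its exons in GENCODE vM21 cover 4117 bases, at which its level would be 97 FPKM, below *Cplx2*. The level was 305, 330, 369 and 389 CPM in the *Mettl3*-CKO retinas, against 443, 455, 460 and 459 CPM in the controls. The controls lay within a narrow band above all *Mettl3*-CKO samples. Averages were 348 ± 37.9 and 454 ± 7.84 CPM (SD, n = 4), which is a log2 fold change of -0.38 (standard error 0.09, edgeR adjusted p = 0.0182), and -0.39 without control replicate 1 (edgeR adjusted p = 0.00573). *Amph*, its neuronal relative, was at -0.33 (edgeR adjusted p = 0.22) and at -0.13 without control replicate 1. *Synj1*, the phosphatase that helps strip the clathrin coat, *Snap91*, a clathrin adaptor, and *Dnm1*, the GTPase that cuts vesicles free, were at -0.15, -0.14 and 0.04.

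Per length, the members spanned a wide range of levels, from 0.536 FPKM for *Syt2* to 163 FPKM for *Bin1* with the deposited lengths, or to 138 FPKM for *Cplx2* with exon lengths from GENCODE vM21, which differ from the deposited ones by over 1% for *Bin1* and *Cplx4*. The 16 members above 20 FPKM included 6 of the called genes, and the 25 at or below 20 FPKM the other 2, *Slc17a7* (10.3 FPKM) and *Sncb* (19.8 FPKM). After *Bin1* and *Cplx2* came *Syp* at 70.2, *Snap25* at 68.1 and *Vamp2* at 62.9 FPKM, whose ranges over samples overlapped, so these 3 are not ordered beyond their spread. *Syt1* (55.2 FPKM), *Syt11* (53 FPKM) and *Rab3a* (50.9 FPKM) followed in the same way.

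**Figure D4:**
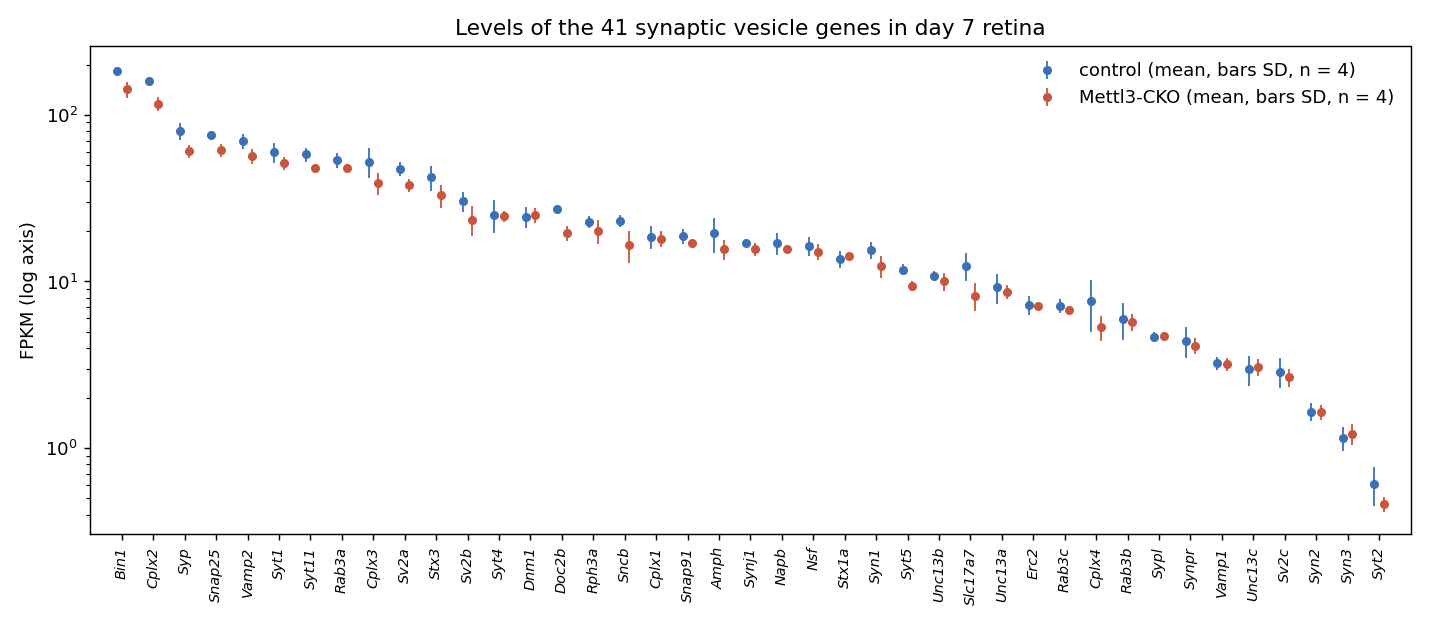
Mean FPKM of each member in control (blue) and *Mettl3*-CKO (red) retinas, on a log axis, with SD bars (n = 4), ordered by the mean over all 8 samples. With the deposited gene lengths the levels run from 163 FPKM (*Bin1*, whose place depends on the length used) to 0.536 FPKM (*Syt2*), and the red points of the called genes lie below the blue ones without overlap of the samples.

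The rest of the vesicle cycle was read from a list of 90 further genes, of which 89 were in the counts and all 89 tested. Of these, 3 were called higher (3.37%) and 4 lower (4.49%), where 6.49% and 4.05% of all tested genes were, so the share lower was near that of all genes. The median log2 fold change was -0.08. *Ap2m1* (-0.42) and *Ap2a2* (-0.35), subunits of the AP-2 clathrin adaptor that works in vesicle retrieval, and *Syngr1* (-0.37), a vesicle membrane protein, were among those that fell. *Syt17* (0.74), *Syt14* (0.34) and *Syngr2* (0.53) rose. The first pair are members of the synaptotagmin family, and *Syngr2* is a relative of *Syngr1* that is made widely outside neurons. Without control replicate 1, the list had 6 genes called higher and 10 lower, where 10.3% and 7.07% of all tested genes were. Its median was then -0.03. The lists for docking, priming and the active zone had 0 of 22 genes called in the fit of all samples by edgeR, and 1 lower without control replicate 1.

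Markers of some cell types also differed between the groups, while the sums of others overlapped. Of 12 rod photoreceptor genes, 7 were called lower and 0 higher, with a median log2 fold change of -0.72, and their summed level was 1702 to 3108 CPM in *Mettl3*-CKO samples and 3223 to 4999 CPM in controls. Genes of cycling progenitors, which have no synapses, were higher for 5 of 12, with 2162 to 2874 CPM against 1622 to 2037 CPM. Amacrine genes, of which 1 of 10 was called lower, overlapped between the groups (1445 to 1852 CPM against 1468 to 1801 CPM). Bipolar cell genes, with 2 of 9 tested higher and 1 lower, also overlapped (1438 to 1539 CPM against 1370 to 1656 CPM). The same held for retinal ganglion cell genes, with 1 of 10 higher (658 to 683 CPM against 588 to 859 CPM). Cone genes, with 1 of 8 tested lower, overlapped too (505 to 715 CPM against 575 to 701 CPM). So did horizontal cell genes, with 1 of 5 tested higher (208 to 247 CPM against 168 to 267 CPM). Control replicate 1 had the highest rod and ganglion cell sums and the lowest progenitor sum. Lens genes were at 5143 CPM in control replicate 4 and at 101 CPM or less in every other sample. With both control replicates 1 and 4 left out 6 members were called lower, beside 3.63% of all tested genes. Of these, 4 were among the 8 called with every sample (*Syp*, *Doc2b*, *Cplx2* and *Bin1*), and the others were *Syt11* and *Vamp2*. *Sv2a*, *Slc17a7*, *Sncb* and *Snap25* were not called in that fit. Of 7 genes of brain neurons outside the retina, 2 had 0 counts in every sample, and their sum was 23.1 to 26.8 CPM in *Mettl3*-CKO samples and 17.5 to 21.5 CPM in controls. Astrocyte genes summed to 54.7 to 83.7 CPM against 95.1 to 215 CPM, with 2 of 5 called lower. Of 10 tested genes of vascular endothelium 8 were called lower, although their sum overlapped (543 to 641 CPM against 568 to 661 CPM). Erythrocyte genes had 2 of 3 called lower (4.29 to 7.18 CPM against 13.9 to 26.3 CPM) and retinal pigment epithelium genes 4 of 9 lower and 1 higher (74.2 to 101 CPM against 99.7 to 138 CPM). Of 10 Müller glial genes 2 were lower and 1 higher (2466 to 2714 CPM against 2563 to 3425 CPM). The median log2 fold change was below that of the rod genes for lens (-5.52, 6 of 9 tested called lower), erythrocyte (-2.21), vascular endothelium (-1.33) and astrocyte genes (-0.87). Medians of the other lists lay between -0.52 (retinal pigment epithelium) and 0.46 (brain neurons outside the retina). The part of these cell types in the results for the vesicle genes was not tested.

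**Figure D5:**
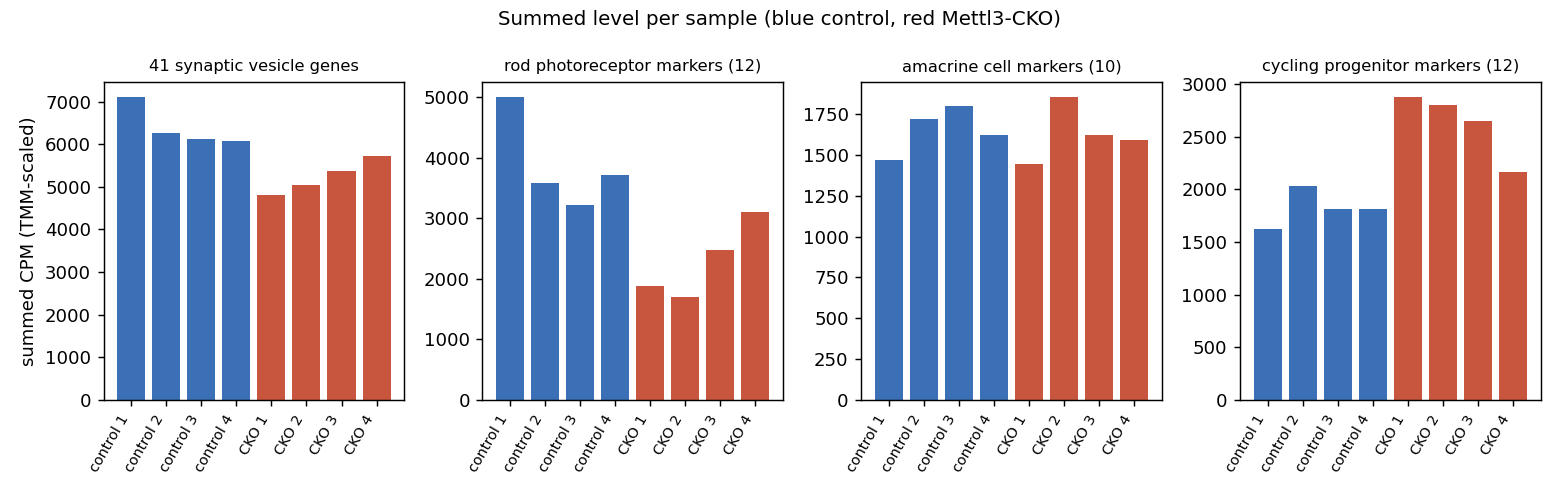
Summed CPM per sample (bars, from 0) of the 41 vesicle genes and of the marker genes of rods, amacrine cells and cycling progenitors, with controls in blue and *Mettl3*-CKO in red. The vesicle genes sum to 4802 to 5732 CPM in *Mettl3*-CKO samples and 6068 to 7097 CPM in controls, the rod genes are also lower without overlap, the progenitor genes are higher, and the amacrine genes overlap.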

How the data were processed

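Bulk RNA-seq covered 4 *Mettl3*-CKO and 4 control retinal samples, grouped by their labels, and all 8 columns were used. According to the methods and the submitters' processing notes, paired-end reads were filtered by the authors, aligned to GRCm38 by HISAT2 and assigned to genes by featureCounts. The deposited values are raw whole-number counts, with totals of 16227095 to 20281517 per sample. Gene lengths were deposited with them. The annotation release and the strand setting of the counting are not given in the sources used here.

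Genes were kept by filterByExpr (17998 of 54532), scaled by TMM and tested, two-sided, with the quasi-likelihood test of edgeR 4.0.16 in R 4.3.3, with Benjamini-Hochberg adjustment over all tested genes and a threshold of 0.05 ("called"). The standard error is the absolute log2 fold change divided by the square root of F. FPKM was computed from counts, gene lengths and total counts, and log2 CPM with a prior count of 2. The scripts were tested on simulated data. DESeq2 1.42.0, limma 3.58.1 (voom with sample quality weights), other scalings, filters, thresholds, a replicate block and samples left out were alternatives. No 2 samples were counted as 1, since the lowest chi-square between a same-group pair was 5.45 per gene.

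Members and lists were chosen with earlier results of these data known. Full values are given for members called with all samples or only without control replicate 1, and for the member with the highest FPKM of each role. Other members are given by log2 fold changes, ranges or counts. Of the other genes of the vesicle cycle those called are named, except an item that is not reported here. Promoter stretches and GGACT counts were read from RefSeq and GENCODE vM21.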

Additional observations from a re-analysis of the deposited data

Results flagged for a closer look

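In each group of 4 samples, the gap between the highest or lowest log2 CPM and its nearest neighbour was divided by the group's range and compared with Dixon's critical value at the 95% level. Of 82 such groups (41 genes in both groups), 4 passed, where chance gives about 4.1. All 4 concerned control replicate 1, and none of these genes was called with all samples or without that library by edgeR. *Syt1* was at 9.27 in control replicate 1 and at 8.80 to 8.87 in the other controls. *Syt4* was at 7.09, beside 6.41 to 6.47. *Cplx3* was at 7.70, beside 7.11 to 7.12, and *Rab3b* was at 4.90, beside 4.15 to 4.26.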

How the results depend on the processing

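No member was called higher in any of the 20 alternative settings. The number called lower (8 with all samples) was 13 with limma voom, 2 at an adjusted p under 0.01 and 13 at one under 0.1, and between 2 and 10 with one library left out. Other scalings and filters gave 9 or 10 (2.37 to 4.76% of all genes), DESeq2 12 (5.79%), and 6 without control replicates 1 and 4 (3.63%). The labels do not say whether the replicate numbers pair the samples. The correlations of same-numbered deviations were -0.111, 0.215, -0.114 and 0.249. They cannot settle it, since samples with different numbers were not compared. With the replicate number as a block, 6 members were called lower, beside 3.67% of all tested genes. Of these 6, 5 were among the 8, and the other was *Vamp2*. Of the other vesicle cycle genes, limma voom called 6 higher and 12 lower, beside 11.9% and 8.71% of all tested genes. A threshold of 0.01 gave 0 and 1 (2.44% and 0.817%), and DESeq2 without control replicate 1 gave 6 and 12 (10.8% and 6.72%). Without control replicates 1 and 4, 7 were lower (3.63%). Leaving out one library gave 0 to 6 higher and 1 to 10 lower. For *Mettl3*, the fold change became past the threshold with DESeq2 (-0.38), limma voom (-0.39) and a threshold of 0.1 (-0.38), and was -0.49 to -0.31 with one library left out, passing only without *Mettl3*-CKO replicate 2 (-0.49, edgeR adjusted p = 0.0185). With exon lengths from GENCODE vM21, an alternative chosen after seeing the data, *Bin1* moved from 163 to 97 FPKM and *Cplx2* stayed at 138 FPKM.

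The sign turned only in members that no setting called. With limma voom, log2 fold changes turned to 0.03 (*Syn2*), 0.01 (*Sypl*), 0.06 (*Synpr*), 0.13 (*Syt4*), 0.02 (*Cplx1*), 0.13 (*Rab3b*), 0.02 (*Erc2*) and -0.05 (*Dnm1*), and *Sypl* was at 0 with total counts. With DESeq2 without control replicate 1 they were 0.07 (*Syn2*), 0.02 (*Sypl*), 0.07 (*Synpr*), 0.01 (*Sv2c*), 0.15 (*Syt4*), 0 (*Napb*), 0.05 (*Cplx1*), 0.15 (*Rab3b*), 0.06 (*Erc2*) and -0.05 (*Dnm1*). Without control replicates 1 and 4 they were 0.01 (*Syn2*), -0.08 (*Syn3*), 0.06 (*Sypl*), 0.08 (*Synpr*), 0.14 (*Syt4*), 0.12 (*Rab3b*) and -0.09 (*Dnm1*). With one library left out the ranges were -0.09 to 0.07 (*Syn2*), -0.02 to 0.18 (*Syn3*), -0.05 to 0.02 (*Sypl*), -0.19 to 0.07 (*Synpr*), -0.23 to 0.01 (*Sv2c*), -0.12 to 0.14 (*Syt4*), -0.15 to 0.04 (*Cplx1*), -0.14 to 0.15 (*Rab3b*), -0.12 to 0.06 (*Erc2*), -0.05 to 0.09 (*Dnm1*), -0.09 to 0.01 (*Vamp1*), -0.04 to 0.20 (*Unc13c*) and -0.02 to 0.13 (*Stx1a*). The cause was not tested.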

Other observations

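Genes known from the ribbon synapses of photoreceptors and bipolar cells were set beside their relatives at conventional synapses, a grouping chosen after the values were seen. The log2 fold changes of the ribbon synapse genes picked were -0.61 (*Slc17a7*), -0.53 (*Cplx4*), -0.45 (*Cplx3*), -0.38 (*Sv2b*) and -0.37 (*Stx3*), of which *Slc17a7* was called. Without control replicate 1 they were -0.45, -0.27, -0.28, -0.26 and -0.23. *Sv2a*, the relative of *Sv2b*, was at -0.34 and called, and *Snap25* and *Vamp2*, which serve both kinds of synapse, were both at -0.31. Among genes of conventional synapses, *Cplx2* was at -0.47 and called, *Syn1* at -0.33, *Cplx1* at -0.05, *Syn2* at -0.03 and *Stx1a* at 0.04. Other members were not assigned to either kind, among them *Syt1* (-0.23), *Unc13b* (-0.11) and *Erc2* (-0.03). The genes picked therefore do not stand for every member that acts at ribbon synapses. The values of both kinds overlapped, and the difference between them was not tested.

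Of the members, 13 share exon bases with another gene in GENCODE vM21, and 3 share more than 10% of them. These are *Syp* (16.8%), *Syt4* (14.5%) and *Syn3* (14.1%, with *Timp3* on the opposite strand).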
